A study of Mus musculus with 12 samples.

Results

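The mitochondrial ribosomal proteins were described from every probe set of the array that was annotated to a single gene symbol beginning with Mrpl or Mrps. There were 156 such probe sets for 76 genes, out of 18193 genes with a probe set of their own, and where a gene had several the brightest on average over the 12 arrays stood for it. All 76 genes passed the filter on dim signals and were among the 10435 genes tested. The RNA came from left ventricular myocardium of male C57BL/6 mice that were 7 weeks old at their first operation, 1 array per mouse and 3 mice per group. AB mice carried an aortic band, against which the left ventricle must pump at higher pressure, and were killed after 4 weeks, and sAB mice had the sham operation and were killed at the same time. DB3 mice were banded for 4 weeks, had the band removed in a further operation and were killed 3 days later. The sDB3 mice had a sham procedure and then the debanding step, so that they differ from sAB mice by that further operation and by 3 days. The series asks, in its own description, how debanding changes expression against sham controls.

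Mitochondria keep their own ribosome, which translates only the few membrane proteins that mitochondrial DNA encodes, all of them parts of the respiratory chain and the ATP synthase. Its ribosomal RNA is mitochondrial, but all of its proteins are encoded in the nucleus, made in the cytosol and imported. Some have a counterpart in the bacterial ribosome and others are found only in mitochondria, and heart muscle, with its dense mitochondria, depends on this supply of respiratory chain subunits. By their known place, 49 of the 76 genes encode proteins of the large subunit, counting Mrps18a and Mrps30, which sit there in spite of their names, and 27 carry small subunit names. Of the 76, 44 were listed here as having a bacterial counterpart, and the other 32 were counted as specific to mitochondria. That list is not complete, so some of the 32 can have a counterpart as well. Mrps36 was kept by its symbol, although structures do not place its product in the mitochondrial ribosome. The product is also known as a subunit of the 2-oxoglutarate dehydrogenase complex.

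Values are log2 signals, with a floor at 2.23. The mean signal of a member over the 12 arrays ran from 7.46 for Mrps5, 7.87 for Mrps11 and 8.49 for Mrps27 up to 12.44 for Mrpl39, 13.43 for Mrpl51 and 14.08 for Mrpl42. Signals of different probe sets depend on the probes and are not compared as RNA levels. All 10 ventricular cardiomyocyte markers were far above the floor, with a median log2 signal of 15.35 to 15.56 over the arrays. Atrial markers were present at uneven levels on the arrays, with a median between 4.96 and 12.80. In a bulk sample, fewer cells of a type and less RNA per cell cannot be told apart. The sAB arrays stood apart in a spiked control: the BioC probe sets averaged 8.41 ± 0.17 in AB, against 10.35 ± 0.18 in sAB, and 8.39 ± 0.06 in DB3, against 8.39 ± 0.18 in sDB3 (SD, n = 3 each). The Cre control was lower in sAB, at 14.38 to 14.55, against 14.71 to 14.91 in AB, 14.74 to 14.81 in DB3 and 14.73 to 14.88 in sDB3. BioB and BioD did not separate the sAB arrays from all the others. BioC and Cre separate the sAB arrays from the rest. A difference of handling and a difference of the sAB hearts thus cannot be told apart in comparisons with sAB.

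As deposited, the mitochondrial ribosomal protein genes as a set were on average lowest in DB3 hearts and highest in sAB hearts. Their mean deviation, each gene taken from its own mean over the 12 arrays, was -0.014, -0.036 and 0.0030 log2 units on the AB arrays, against 0.075, 0.16 and 0.089 on the sAB arrays. It was -0.033, -0.085 and -0.16 on the DB3 arrays, against 0.061, -0.069 and 0.0060 on the sDB3 arrays. The AB and sAB arrays did not overlap, while the DB3 arrays overlapped both the sDB3 and the AB arrays. The scale of the arrays matters here, because the median of the genes tested was lower on the sDB3 arrays (7.87 to 7.94) than on the other 9 arrays (7.98 to 8.09). After each array was centred on that median, the mean deviation was -0.087 to -0.058 in AB, against 0.041 to 0.14 in sAB, and -0.14 to -0.11 in DB3, against 0.067 to 0.13 in sDB3. On that scale all 6 arrays of banded hearts lay below all 6 sham arrays. Both subunits gave similar values as deposited: the mean deviation was -0.015 ± 0.017 in AB, 0.10 ± 0.052 in sAB, -0.087 ± 0.063 in DB3 and -3.1e-05 ± 0.069 in sDB3 for the large subunit, and -0.017 ± 0.025, 0.12 ± 0.043, -0.10 ± 0.065 and -0.0016 ± 0.060 in the same order of groups for the small subunit (SD, n = 3 arrays each).

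**Figure D1:**
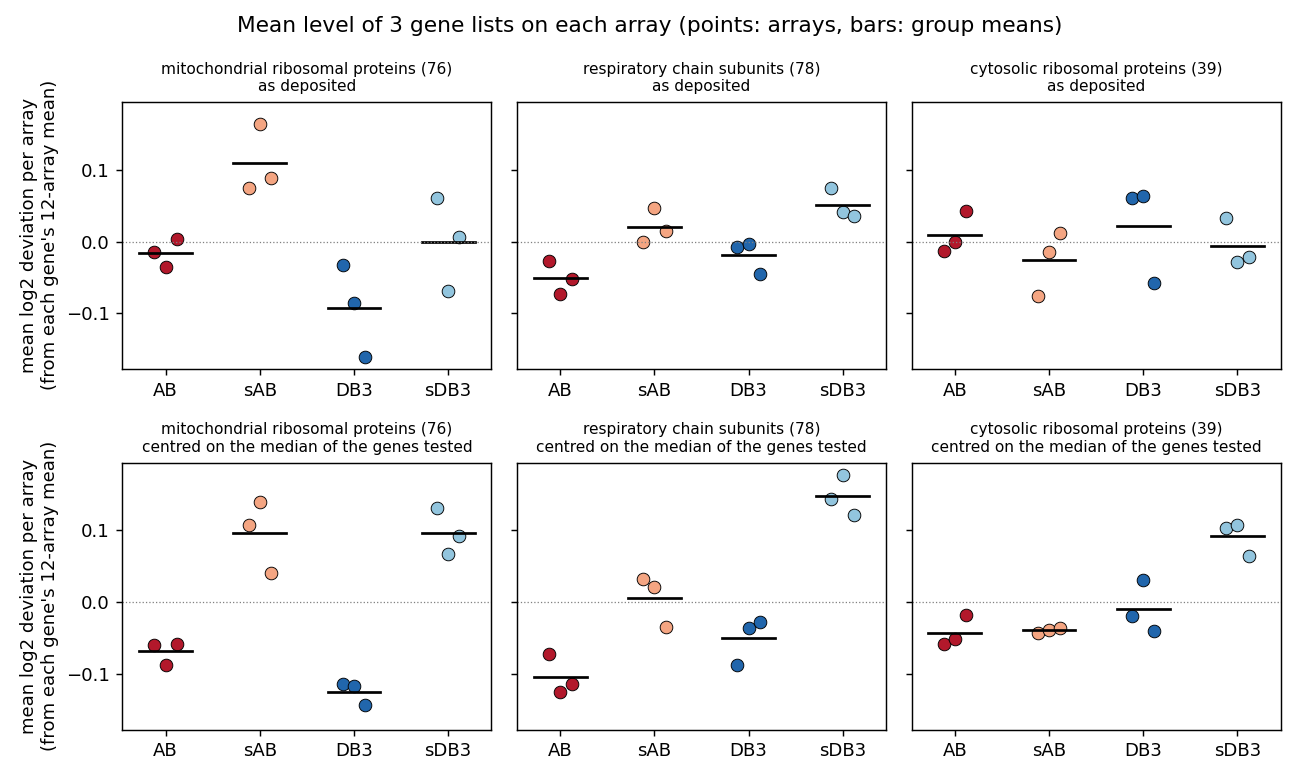
Mean log2 deviation per array (y axis) of the mitochondrial ribosomal protein genes, the nuclear-encoded respiratory chain subunits and the cytosolic ribosomal proteins, by group (x axis), as deposited in the upper row and after centring each array on the median of the genes tested in the lower row. Points are arrays and bars are group means; the centred mitochondrial ribosomal protein values are below 0 on the 6 arrays of AB and DB3 and above 0 on the 6 arrays of sAB and sDB3.

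Signals of mitochondrial ribosomal protein genes were lower in hearts banded for 4 weeks than in sAB hearts, whose arrays the BioC control sets apart. In AB against sAB, 13 of the 76 were lower and 0 were higher at an adjusted p under 0.05 in limma, where 7.69% of all genes tested were lower and 12% were higher. The median log2 difference of the 76 was -0.11, against 0.012 over all genes tested, and 63 of the 76 differences were below 0. The changes were small: the largest was -0.51. At an unadjusted p under 0.05, in either direction, the count was 26 (34.2%), where 33.8% of all genes tested passed, so that this share was near the background. In 36 members the 3 AB arrays lay below the 3 sAB arrays and in 1 above, where this held for 19% and 23.1% of all genes tested. Against the later sham, sDB3, 5 of the 76 were lower in AB, where 4.69% of all genes tested were.

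The large subunit gave 8 of the 13. Mrpl14, the counterpart of bacterial L14 at the face that meets the small subunit, had log2 signals of 9.20, 9.001 and 9.15 in AB hearts, against 9.50, 9.77 and 9.62 in sAB hearts. The groups did not overlap, and it was lower in AB by the widest margin of the 76, with a log2 difference of -0.51 ± 0.09 (SE; limma adjusted p = 0.00452), 1.42-fold lower. Mrpl50, a protein specific to mitochondria, had 9.36, 9.26 and 9.35 in AB hearts, against 9.65, 9.84 and 9.80 in sAB hearts. All 3 AB values lay below the sAB values, and the log2 difference was -0.44 ± 0.08 (adjusted p = 0.00438). Mrpl48, a mitochondria-specific protein of the central protuberance, the knob of the large subunit that faces the tRNAs, had 10.19, 10.23 and 10.29 in AB hearts, against 10.57, 10.59 and 10.67 in sAB hearts. The ranges were again apart, by a log2 difference of -0.37 ± 0.08 (adjusted p = 0.0108). Mrpl55 (-0.30), Mrpl16 (-0.30), the counterpart of bacterial L16 near the A site, Mrpl42 (-0.29), Mrpl39 (-0.26) and Mrpl27 (-0.26), whose bacterial counterpart reaches into the peptidyl transferase centre, were also lower in AB.

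The small subunit gave 5. Mrps22, which has no bacterial counterpart, had log2 signals of 9.32, 9.25 and 9.45 in AB hearts, against 9.85, 9.78 and 9.69 in sAB hearts. No AB array reached the lowest sAB array, and the log2 difference was -0.43 ± 0.08 (adjusted p = 0.00517). Mrps9, the counterpart of bacterial S9 in the head of the subunit, had 10.36, 10.43 and 10.25 in AB hearts, against 10.77, 10.77 and 10.69 in sAB hearts. Here too the groups were apart, by -0.40 ± 0.07 (adjusted p = 0.00456). Mrps31 (-0.34), Mrps33 (-0.32) and Mrps7 (-0.23), the counterpart of bacterial S7, were lower in AB as well. Centring on the median of all probe sets, where 9 members were lower and 5.80% of all genes tested were, ended the calls of Mrpl27, Mrpl39, Mrpl55 and Mrps7. Leaving out any single array kept the calls of Mrpl14, Mrpl16, Mrpl42, Mrpl48, Mrpl50, Mrps9 and Mrps22. The other 6 calls were lost without at least 1 array, and the count of lower members was 8 without AB replicate 2 or without sAB replicate 2.

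**Figure D2:**
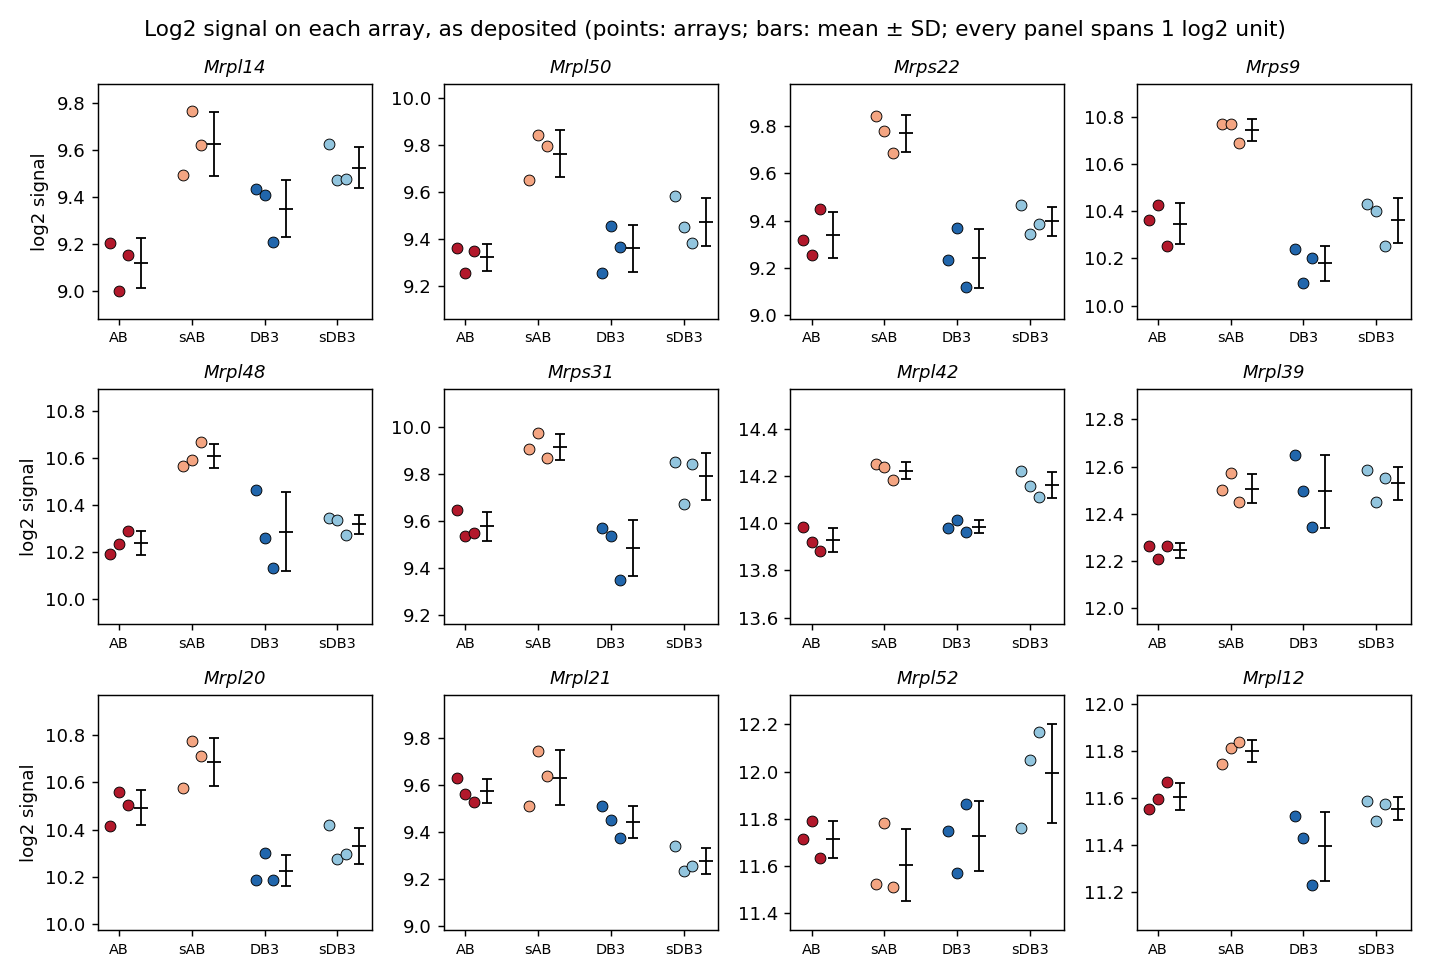
Log2 signal as deposited (y axis, every panel spanning 1 log2 unit) of 12 mitochondrial ribosomal protein genes in the 4 groups (x axis). Points are arrays and bars are the group mean ± SD; Mrpl14, Mrpl50, Mrps22, Mrps9 and Mrpl48 show 3 AB values below all 3 sAB values.

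Markers of other cell types and measures of RNA quality were also compared between AB and sAB, and not all of them differed. Of the 6 fibroblast markers, 2 were higher in AB, and their summed linear signal was 18025 to 23961 in AB, against 13907 to 19989 in sAB. Of the 10 ventricular cardiomyocyte markers 1 was higher and 0 were lower, but their summed signal was 439247 to 460842 in AB, against 465880 to 474356 in sAB, and it was likewise 452178 to 460154 in DB3, against 478923 to 489136 in sDB3. Of the 4 atrial markers, 1 was higher in AB, Nppa, which ventricular cardiomyocytes also make under load, and the summed signal was 36655 to 46490 in AB, against 7359 to 8096 in sAB. The 6 endothelial markers summed to 4687 to 4957 in AB, against 4267 to 4684 in sAB. The 6 macrophage markers summed to 2539 to 2756 in AB, against 2427 to 4907 in sAB, with overlap. No marker was at the floor in any group. The 3 prime minus 5 prime difference of the Actb control probe sets was 1.02 to 1.13 in AB, against 1.20 to 1.26 in sAB. That of the Gapdh control probe sets overlapped, at 0.028 to 0.034 in AB, against -0.046 to 0.050 in sAB. The part of these values in the result was not tested.

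In hearts 3 days after debanding, 1 mitochondrial ribosomal protein gene passed. In DB3 against sDB3, 0 of the 76 were higher and 1 was lower, where 5.37% of all genes tested were higher and 0.997% were lower. The median log2 difference of the 76 was -0.093, against 0.091 over all genes tested, and 62 of the 76 differences were below 0. At an unadjusted p under 0.05, in either direction, the count was 20 (26.3%), near the 25.9% of all genes tested. In 20 members the DB3 arrays lay below the sDB3 arrays and in 1 above, against 5.74% and 22.4% of all genes tested. The member that passed was Mrps31, a small subunit protein specific to mitochondria, with 9.57, 9.54 and 9.35 in DB3 hearts, against 9.85, 9.67 and 9.84 in sDB3 hearts. The groups did not overlap, and the log2 difference was -0.31 ± 0.08 (adjusted p = 0.0485). This call was lost when any single array of the 12 was left out. Fibroblast markers moved with this comparison: 1 of the 6 was higher and 0 were lower in DB3, and their summed linear signal was 16787 to 21235 in DB3, against 14311 to 15191 in sDB3, without overlap. The 6 macrophage markers summed to 2497 to 2588 in DB3, against 2230 to 2446 in sDB3, and none passed. The summed signal of the ventricular cardiomyocyte markers was lower in DB3 without overlap, as given above, and the part of these values in the result was not tested.

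The count in DB3 against sDB3 depended on the scale. Centring the arrays moved the median difference of all genes tested to -0.038 and that of the 76 members to -0.22, and the members' median less that of all genes was -0.18 on both scales, since centring shifts every gene of an array alike. Centred, 20 of the 76 were lower and 0 higher, where 3.33% of all genes tested were lower and 1.22% higher. The members with the largest centred differences were Mrps31 (-0.43), Mrpl19 (-0.41), Mrps11 (-0.41), Mrps36 (-0.40) and Mrps34 (-0.39). With quantile normalization 2 were lower, where 0.882% of all genes tested were, and after centring on the median of all probe sets, which lies close to the floor at 2.74 to 2.83, 0 were, where 0.757% of all genes tested were. In AB against sAB the centred count was 25 lower and 0 higher, where 10.3% and 10.4% of all genes tested passed.

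The debanding arm was set against the banded hearts directly. In DB3 against AB, 3 of the 76 were lower and 0 higher, where 5.12% of all genes tested were lower and 4.04% higher, so the members' share was close to that of all genes. The median difference was -0.088, against -0.017 over all genes tested. Mrpl19, a large subunit protein with a bacterial counterpart, had 9.19, 9.15 and 9.18 in DB3 hearts, against 9.52, 9.55 and 9.45 in AB hearts. The DB3 values were below those of all 9 other arrays, and the log2 difference to AB was -0.34 ± 0.08 (adjusted p = 0.0325). Mrps34, which is specific to mitochondria, had 11.11, 11.16 and 10.99 in DB3 hearts, against 11.36, 11.39 and 11.40 in AB hearts. It too was lowest in DB3, by -0.30 ± 0.07 against AB (adjusted p = 0.0308). Mrpl20, whose bacterial counterpart binds ribosomal RNA early in assembly, was lower in DB3 by -0.27 ± 0.08 (adjusted p = 0.0498). All 3 calls were lost without single arrays, those of Mrpl19 and Mrpl20 among others without any 1 of the 6 AB and DB3 arrays, and the count was 0 without any 1 of the AB arrays or DB3 replicate 3 and 1 without DB3 replicate 1 or 2. Centred, 2 were lower (Mrpl19 and Mrps34) and 1 was higher, Mrpl39 at 0.27, where 4.46% and 4.75% of all genes tested passed. With no filter on dim probe sets the calls of Mrpl19 and Mrpl20 were lost. The atrial markers summed to 13557 to 30529 in DB3, against 36655 to 46490 in AB, and the endothelial markers to 3754 to 4621 in DB3, against 4687 to 4957 in AB; their part was not tested.

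None of the 76 passed the test of whether the banding effect differed from the effect in the debanded arm. In that test, the difference DB3 minus sDB3 less the difference AB minus sAB, 0 members were higher and 0 lower by limma, where 3.45% of all genes tested were higher and 2.59% lower, and 9 members (11.8%) had an unadjusted p under 0.05, against 24.2% of all genes tested. Moderation with a trend and a robust prior gave 0 as well. Mrpl13, a large subunit protein with a bacterial counterpart, had 11.54, 11.57 and 11.42 in DB3 hearts, against 11.74, 11.65 and 11.63 in sDB3 hearts, and 11.73, 11.64 and 11.77 in AB hearts, against 11.57, 11.62 and 11.66 in sAB hearts. DB3 was below sDB3 without overlap, while AB and sAB overlapped. Its difference of effects was -0.26 ± 0.09 (adjusted p = 0.116) as deposited and passed once arrays were centred, at -0.35 (adjusted p = 0.037), where 4.12% of all genes tested were lower and 1.47% higher. No other member passed on that scale. The other Mrpl13 probe sets past the filter had differences of effects of -0.22 and -0.04 as deposited, and neither passed. In AB against sAB they differed by -0.09 and -0.11, where the chosen probe set differed by 0.10.

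The sham groups differed from each other as well. In sDB3 against sAB, 10 of the 76 were lower and 1 was higher, where 12.3% of all genes tested were lower and 5.49% higher, so the lower share was near the background. The median was -0.11, against -0.094 over all genes tested. Mrps10, a small subunit protein with a bacterial counterpart, had 9.27, 9.14 and 9.48 in sDB3 hearts, against 9.74, 9.72 and 9.60 in sAB hearts. The ranges were apart, by -0.39 ± 0.09 (adjusted p = 0.013). Mrps9 (-0.38), Mrps22 (-0.37), Mrpl20 (-0.36) and Mrpl21 (-0.36) followed. Mrpl52, specific to mitochondria, was the member that was higher, with 11.76, 12.05 and 12.17 in sDB3 hearts, against 11.52, 11.78 and 11.51 in sAB hearts. These groups overlapped, and the log2 difference was 0.39 ± 0.12 (adjusted p = 0.0467). The 2 other Mrpl52 probe sets past the filter were higher by 0.16 and 0.10, and neither passed. Quantile normalization and averaged probe sets ended the call of Mrpl52. Its call was lost without any 1 of 8 arrays, sDB3 replicates 2 and 3 among them, and the count of lower members was 6 without any 1 of the sAB arrays or without sDB3 replicate 1 or 2. The balance of calls in this comparison turned with the scale: centred, 3 were lower (Mrps9, Mrpl20 and Mrpl21) and 6 higher. Of all genes tested, 4.61% were then lower and 10.1% higher, and their median moved to 0.016. The centred mean deviation of the 76 overlapped between the groups, at 0.067 to 0.13 in sDB3, against 0.041 to 0.14 in sAB.

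AB hearts were also compared with the later sham, sDB3, a difference that the sAB arrays do not enter. Of the 76, 5 (6.58%) were lower and 1 was higher, where 4.69% of all genes tested were lower and 17.3% higher, so the lower share was near the background. The median was -0.0080, against 0.11 over all genes tested, and it turned to 0.043 after centring on all probe sets. Mrpl14 had 9.20, 9.001 and 9.15 in AB hearts, against 9.63, 9.47 and 9.48 in sDB3 hearts. No AB value reached an sDB3 value, and the log2 difference was -0.41 ± 0.09 (adjusted p = 0.0138). Mrpl45, which anchors the ribosome to the inner membrane at the tunnel exit, was lower by -0.33 ± 0.11 (adjusted p = 0.0491), Mrpl39 by -0.28, Mrpl42 by -0.23 and Mrps36 by -0.23. Mrpl21, with a bacterial counterpart, had 9.63, 9.56 and 9.53 in AB hearts, against 9.34, 9.24 and 9.26 in sDB3 hearts. It was higher in AB without overlap, by 0.30 ± 0.07 (adjusted p = 0.0174), and this call was lost after centring. The count of lower members was 0 without AB replicate 2, 1 without AB replicate 3, 2 without sDB3 replicate 1 or 3 and 3 without AB replicate 1, DB3 replicate 2 or sAB replicate 3. Centred, 25 were lower and 0 higher, where 12.6% and 7.07% of all genes tested passed, and the median of all genes was -0.042. Centred on all probe sets, 2 were lower and 4 higher, where 3.36% and 23.2% of all genes tested passed. The fibroblast markers summed to 18025 to 23961 in AB, against 14311 to 15191 in sDB3, and the ventricular cardiomyocyte markers to 439247 to 460842 in AB, against 478923 to 489136 in sDB3, with a part in the result that was not tested. Mrpl14, Mrpl39 and Mrpl42 were thus lower in AB than in either sham, as deposited and centred on the genes tested, in comparisons that share the AB arrays. Mrpl39 lost its call in both comparisons after centring on all probe sets. Mrpl42 lost its call against sDB3 with only the groups compared.

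**Figure D3:**
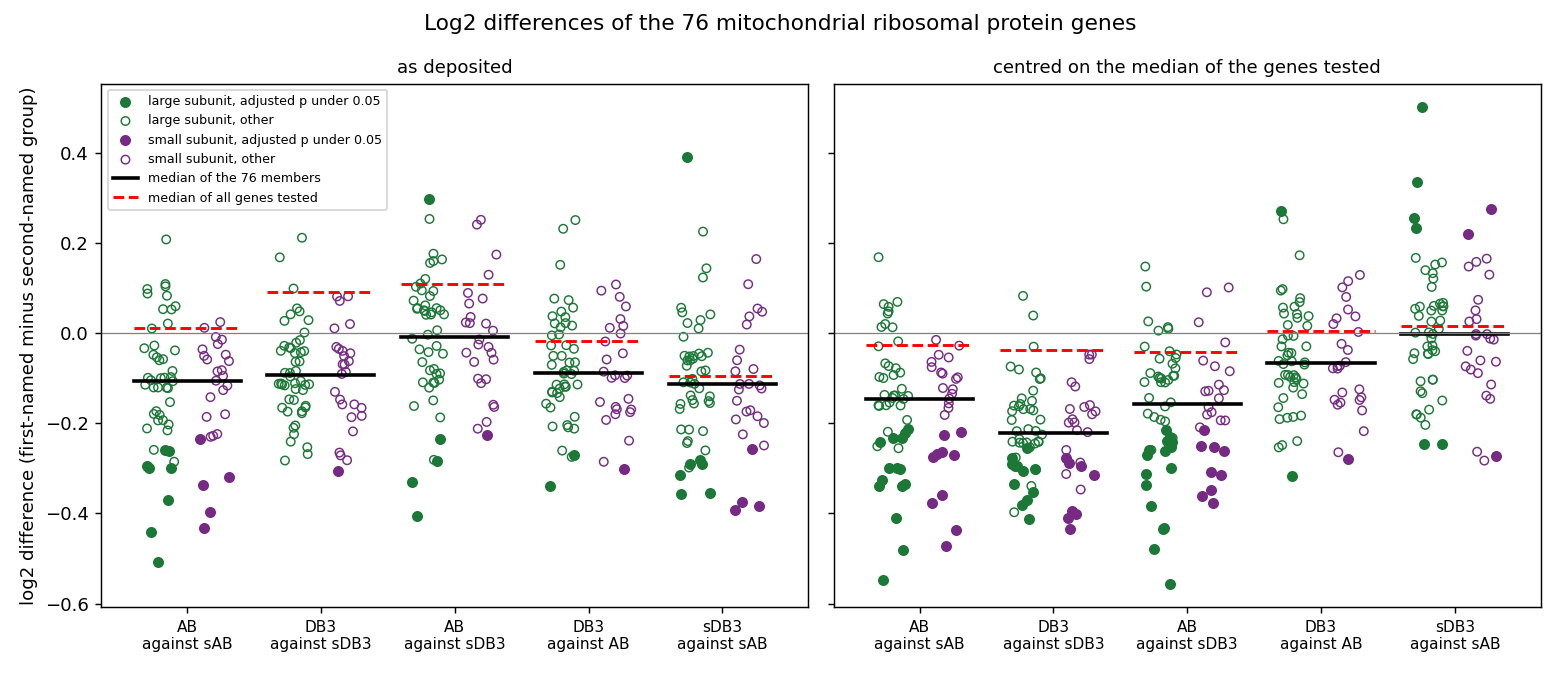
Log2 difference (y axis) of each of the 76 mitochondrial ribosomal protein genes in 5 comparisons (x axis), as deposited at left and centred on the median of the genes tested at right. Filled points passed an adjusted p under 0.05, green is the large and purple the small subunit, the black bar is the median of the 76 and the red dashed bar that of all genes tested; the black bar lies below the red one in every comparison in both panels.

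A comparison of the 6 banded hearts (AB and DB3) with the 6 sham hearts (sAB and sDB3), each pair of groups weighted equally, was added after the data were seen. In it, 18 of the 76 were lower and 0 higher, where 5.65% of all genes tested were lower and 16.5% higher. The median was -0.093, against 0.059 over all genes tested, and 67 of the 76 differences were below 0. The 5 with the largest fall were Mrpl14 (-0.34 ± 0.07, adjusted p = 0.00572), Mrps31 (-0.32 ± 0.06, adjusted p = 0.00323), Mrps22 (-0.30 ± 0.06, adjusted p = 0.00615), Mrps9 (-0.29 ± 0.05, adjusted p = 0.00389) and Mrpl50 (-0.28 ± 0.06, adjusted p = 0.00748). The sham side includes the sAB arrays that the BioC control sets apart. Against sDB3 alone, Mrps22, Mrps9 and Mrpl50 differed by -0.06, -0.01 and -0.15 in AB. In DB3 against sDB3 they differed by -0.16, -0.18 and -0.11, and none of these differences passed. Mrpl14 passed in AB against sDB3 and Mrps31 in DB3 against sDB3. Mrpl42, specific to mitochondria, had 13.98, 13.92 and 13.88 in AB hearts, against 14.25, 14.24 and 14.18 in sAB hearts, and 13.98, 14.02 and 13.96 in DB3 hearts, against 14.22, 14.16 and 14.11 in sDB3 hearts. Every banded heart was below every sham heart, by a mean of -0.24 ± 0.04 (adjusted p = 0.00323). Of the 18, 9 belong to the 49 large subunit members and 9 to the 27 with small subunit names, Mrps36 among them. Centring raised the count to 47 lower and 0 higher, where 14% and 9.21% of all genes tested passed, and centring on all probe sets lowered it to 10, where 3.79% were lower. It ran from 11 (without AB replicate 2 or 3, sAB replicate 2 or sDB3 replicate 1) to 22 when single arrays were left out.

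The proteins around the known functional sites were followed in every comparison. The stalk recruits elongation factors, and of its 4 measured proteins 0 passed in any of the 5 comparisons of a single group with another. Mrpl12, the stalk protein that also binds the mitochondrial RNA polymerase, had 11.56, 11.60 and 11.67 in AB hearts, against 11.75, 11.81 and 11.84 in sAB hearts, and 11.52, 11.43 and 11.23 in DB3 hearts, against 11.59, 11.50 and 11.58 in sDB3 hearts. AB lay below sAB, and DB3 and sDB3 overlapped. Its log2 difference was -0.19 ± 0.08 in AB against sAB (adjusted p = 0.108), -0.16 ± 0.08 in DB3 against sDB3 (adjusted p = 0.223), 0.05 in AB against sDB3, -0.21 in DB3 against AB and -0.24 in sDB3 against sAB, and -0.18 ± 0.06 in the banded against the sham hearts, where it passed (adjusted p = 0.0427). Mrpl10, which carries the stalk, differed by 0.010 for AB against sAB, -0.03 for DB3 against sDB3, 0.06 for AB against sDB3, -0.09 for DB3 against AB and -0.05 for sDB3 against sAB. Mrpl11, at the base of the stalk, differed by -0.15, -0.09, -0.11, 0.02 and -0.04 in the same order of comparisons. Mrps12, of the decoding centre in the small subunit, differed by -0.04, -0.07, 0.08, -0.15 and -0.11. None of these 15 differences of Mrpl10, Mrpl11 and Mrps12 passed. In AB against sAB, 7.69% of all genes tested were lower. So were 2 of the 6 central protuberance proteins (Mrpl27 and Mrpl48) and 1 of the 8 proteins at the rim of the exit tunnel (Mrpl39). The calls of Mrpl27 and Mrpl39 were lost without single arrays. These lists and that of the stalk are too small to set a site apart from all genes. In the same comparison 5 of the 44 members listed with a bacterial counterpart and 8 of the other 32 were lower, with medians of -0.10 and -0.11.

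The members also differed in which group stood apart. In 21 members the 3 sAB arrays lay above all 9 others, where 6.56% of all genes tested did so, and in 0 members below, where 6.47% did so. The gaps were widest for Mrps9 (0.26), Mrps22 (0.22) and Mrpl55 (0.11). The 3 DB3 arrays lay below all 9 others in 6 members, against 1.51% of all genes tested, led by Mrps34 (0.065), Mrpl19 (0.061) and Mrpl38 (0.057), and above in 0, against 3.88%. The AB arrays were lowest in Mrpl39 (0.078) and Mrpl14 (0.0064), against 3.29% of all genes tested. The sDB3 arrays were lowest in Mrpl21 (0.034), against 6.66%, and highest in Mrps36 (0.020) and Mrps21 (0.016), against 1.07%. As the BioC control also sets sAB apart, the 21 cannot be told apart from a difference of those arrays. After centring, sAB was highest in 10 (5.04% of all genes tested), DB3 lowest in 17 (3.18%), sDB3 highest in 13 (5.65%) and AB lowest in 5 (6.12%). Over the 4 groups together, 31 of the 76 passed limma's F test, or 40.8%, where 37.2% of all genes tested passed.

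**Figure D4:**
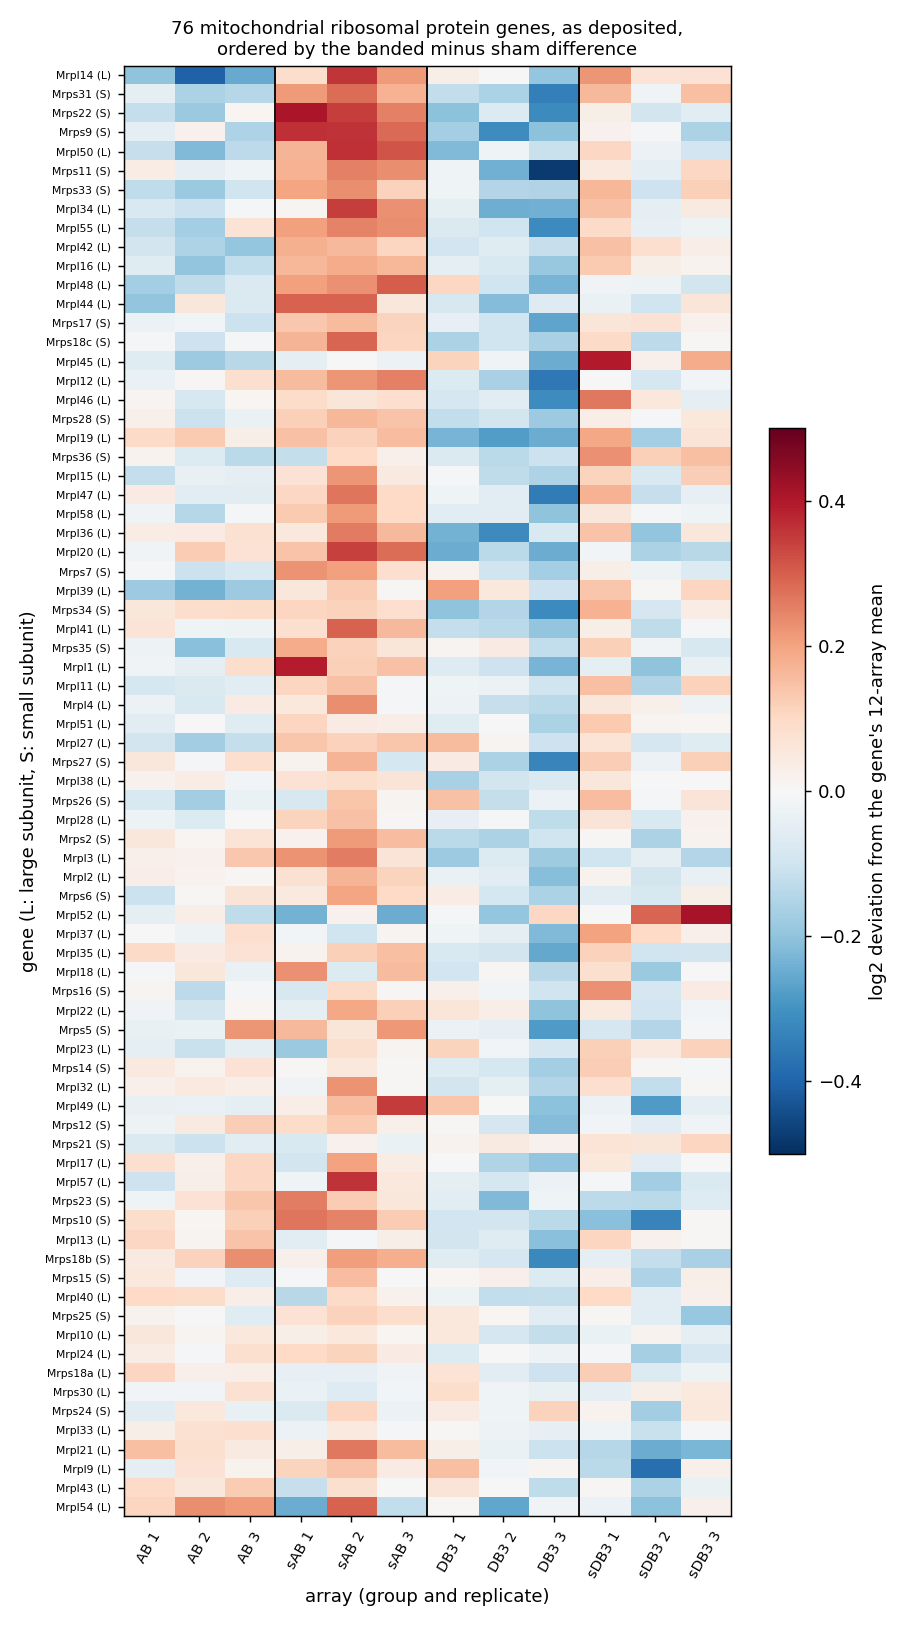
Log2 deviation from each gene's mean over the 12 arrays (colour, as deposited) of the 76 mitochondrial ribosomal protein genes (rows, L large and S small subunit), ordered by the difference of banded from sham hearts, on each array (columns). The sAB columns are red over most rows and DB3 replicate 3 is the bluest column, with a mean deviation of -0.16.

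Several probe sets of a gene could be compared in 30 members. In AB against sAB the chosen probe set and the other probe sets past the filter had the same sign in 21 of 30, and they did so in 17 for DB3 against sDB3, in 13 for AB against sDB3, in 16 for DB3 against AB and in 20 for sDB3 against sAB. No member had probe sets passing in both directions in those comparisons. Of the 13 members that were lower in AB against sAB, 5 had a further probe set past the filter (Mrpl27, Mrpl39, Mrpl48, Mrpl50 and Mrps9), all lower in AB as well, and in Mrpl48 and Mrpl50 a further probe set passed. In the same comparison dimmer probe sets of Mrpl51 (0.52) and Mrpl52 (0.45) passed as higher in AB. The chosen probe sets of Mrpl51 (-0.10) and Mrpl52 (0.11) did not pass there. In banded against sham hearts Mrpl51 had dimmer probe sets passing in both directions, 1 lower at -0.18 and 1 higher at 0.24, while its chosen probe set did not pass at -0.11.

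Promoter sequences were read for the members because many of them moved the same way. RefSeq promoter windows (GRCm38.p6, 250 bases before to 50 after each start) were found for 67 of the 76 members, and the 9 without an entry are Mrpl4, Mrpl13, Mrpl15, Mrpl19, Mrpl38, Mrpl54, Mrps28, Mrps34 and Mrps35. Both strands were searched for GCGCA and GCGC with 1 base of any kind between them, known for nuclear respiratory factor 1 (NRF1), for CCGGAAG, known for the ETS family that includes GABP, and for AAGATGGCG, known for YY1. The ETS letters end with AAG, with which the YY1 letters begin, so that a stretch can hold both. NRF1 letters were in the windows of 12 of the 67 members (17.9%), against 5.2% of all genes with a window, ETS letters in 25 (37.3%), against 9.9%, and YY1 letters in 8 (11.9%), against 1.6%. At least 1 of the motifs was in 39 members (58.2%), against 15.1% of all genes. Among protein-coding genes, which the members all are, the shares were 7.2% for NRF1, 12.9% for ETS, 2.1% for YY1 and 20% for at least 1 of them. Of the 13 members lower in AB against sAB, 8 held a motif (61.5%), against 31 of the 54 that did not pass (57.4%). The 100 bases before the start are shown for 4 members with a match and for Mrpl50, which was among the most lowered in AB and has no match, chosen with the matches known and with capitals for the motif letters. They lie at chr9:98601680-98601779 on the minus strand (Mrps22), chr11:94653691-94653790 on the plus strand (Mrpl27), chr11:120484537-120484636 on the plus strand (Mrpl12), chr11:97315616-97315715 on the plus strand (Mrpl45) and chr4:49521084-49521183 on the minus strand (Mrpl50), each written 5′ to 3′ on the strand of the gene.
Mrps22, ETS letters: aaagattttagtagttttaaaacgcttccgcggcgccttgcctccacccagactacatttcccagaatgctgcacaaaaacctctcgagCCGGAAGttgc
Mrpl27, ETS letters: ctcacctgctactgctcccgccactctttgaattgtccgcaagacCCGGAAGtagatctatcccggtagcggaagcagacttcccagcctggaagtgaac
Mrpl12, NRF1 letters on the opposite strand: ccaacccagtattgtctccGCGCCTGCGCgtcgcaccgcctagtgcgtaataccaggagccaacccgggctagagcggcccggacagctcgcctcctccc
Mrpl45, NRF1 letters: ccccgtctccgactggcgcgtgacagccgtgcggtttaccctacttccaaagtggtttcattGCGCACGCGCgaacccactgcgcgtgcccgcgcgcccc
Mrpl50, no match: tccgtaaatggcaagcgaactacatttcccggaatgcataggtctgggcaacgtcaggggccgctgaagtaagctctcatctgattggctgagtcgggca
A match is a description of the letters and not of a bound site or a cause, and a missing match says only that these letters are not in the window.

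Genes that build and use the mitochondrial ribosome were taken from lists of known function, and their counts stand beside 7.69% of all genes tested lower and 12% higher in AB against sAB, 0.997% and 5.37% in DB3 against sDB3, and 12.3% and 5.49% in sDB3 against sAB. Of 25 tested genes for assembly and ribosomal RNA modification, 6 were lower and 2 higher in AB against sAB (median -0.10), 0 passed in DB3 against sDB3 (median 0.068), and 5 were lower and 0 higher in sDB3 against sAB (median -0.20). Gtpbp10, a GTPase of large subunit assembly, averaged 6.58 ± 0.04 in AB and 6.93 ± 0.05 in sAB, and 6.53 ± 0.08 in DB3 and 6.33 ± 0.11 in sDB3 (SD, n = 3 each). It was lower in AB than in sAB by -0.35 (limma adjusted p = 0.00719) and lower in sDB3 than in sAB by -0.59 (adjusted p = 0.00108). Mettl17, an assembly factor of the small subunit, was lower in AB against sAB by -0.60 (adjusted p = 0.0187), as was Trmt61b, an RNA methyltransferase, by -0.49 (adjusted p = 0.0322). Tfb1m, which methylates the small subunit ribosomal RNA, was lower in sDB3 against sAB by -0.69 (adjusted p = 0.00251). Of 11 translation factors, 1 was lower and 0 higher in AB against sAB, the elongation factor Gfm1, with 11.20 ± 0.10 in AB and 11.59 ± 0.10 in sAB (log2 difference -0.40, adjusted p = 0.00652). The release factor Mtrf1l was the translation factor that passed in DB3 against sDB3, where it was higher by 0.40 (adjusted p = 0.0275), and it was lower in sDB3 against sAB by -0.59 (adjusted p = 0.00207). Of 16 mitochondrial aminoacyl-tRNA synthetases, which charge the tRNAs that the ribosome reads, 2 were lower and 0 higher in AB against sAB, Rars2 (-0.36) and Hars2 (-0.32), and 0 passed in DB3 against sDB3. Of the 6 mitochondrial ribosome proteins with other names, 0 passed in AB against sAB (median -0.088) or in DB3 against sDB3 (median 0.0043).

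Respiratory chain subunits encoded in the nucleus work beside the proteins that this ribosome makes. Of 78 nuclear-encoded respiratory chain subunits, 9 were lower and 2 higher in AB against sAB (median -0.088), and 1 was lower and 0 higher in DB3 against sDB3 (median -0.075). In sDB3 against sAB 2 were lower and 4 higher (median 0.014). Of 39 cytosolic ribosomal proteins, 0 were lower and 3 higher in AB against sAB (median 0.0077), and 0 passed in DB3 against sDB3 (median 0.051). Of 21 genes for mitochondrial DNA transcription and RNA processing, 1 was lower and 1 higher in AB against sAB. Hsd17b10, a subunit of the mitochondrial RNase P, was lower in AB by -0.35 (adjusted p = 0.00387), and Polg, the mitochondrial DNA polymerase, was higher in AB by 0.22 (adjusted p = 0.0157) and in DB3 against sDB3 by 0.27 (adjusted p = 0.025). Tfam, which packs mitochondrial DNA and starts its transcription, averaged 9.995 ± 0.03 in DB3 and 10.29 ± 0.06 in sDB3, lower by -0.30 (adjusted p = 0.0259), and differed by -0.011 in AB against sAB (adjusted p = 0.92). The medians of these lists in DB3 against sDB3 moved with the scale like those of all genes: centred on the genes tested, they were -0.061 for assembly and ribosomal RNA modification, -0.12 for the ribosome proteins with other names, -0.20 for respiratory chain subunits and -0.078 for cytosolic ribosomal proteins.

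**Figure D5:**
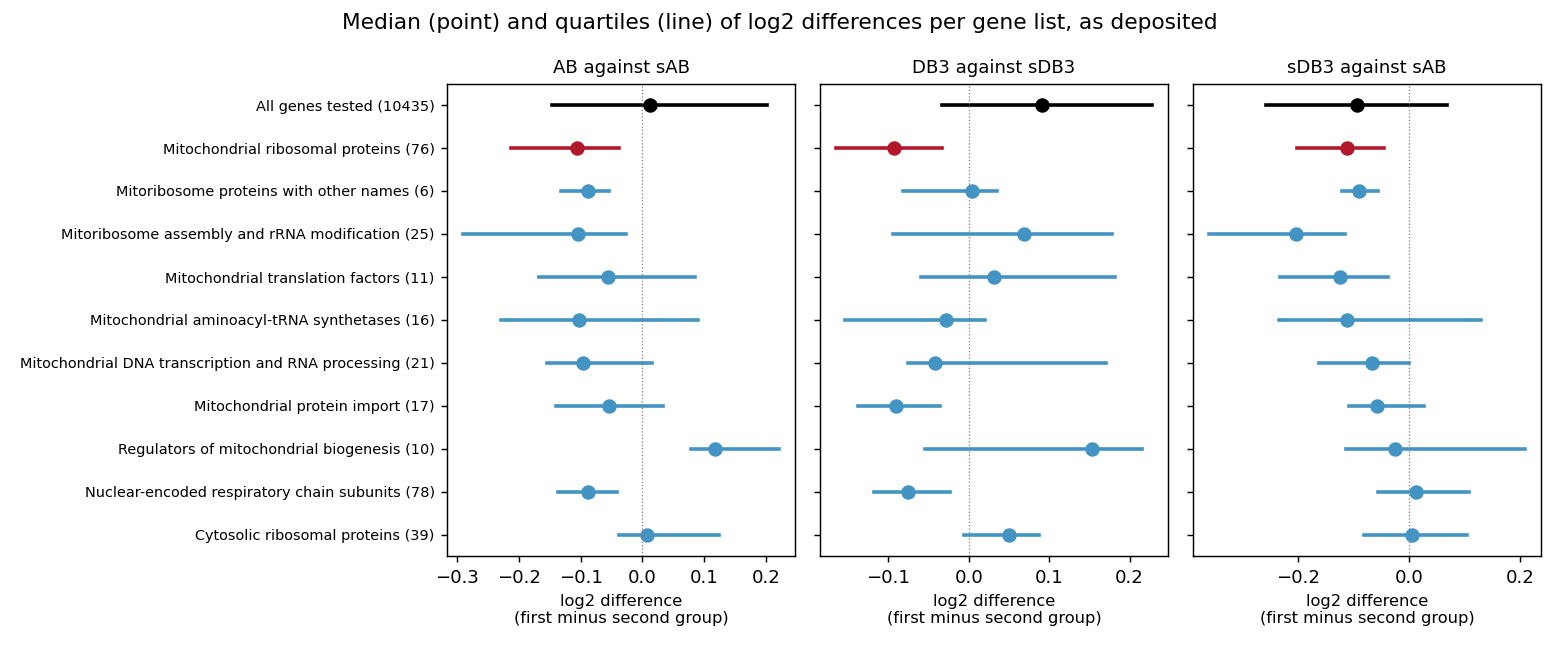
Median (point) and quartiles (line) of the log2 differences (x axis) of the mitochondrial ribosomal proteins, 9 related gene lists and all genes tested (rows, number of genes in brackets) in AB against sAB, DB3 against sDB3 and sDB3 against sAB, as deposited. In DB3 against sDB3 the median is -0.093 for the mitochondrial ribosomal proteins, -0.075 for respiratory chain subunits and 0.051 for cytosolic ribosomal proteins.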

How the data were processed

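Total RNA of the left ventricle was labelled from 3 µg and hybridised to Affymetrix arrays, per the labels' protocols. The authors deposited log2 signals per probe set, and the submitters' processing notes name GCRMA as the tool. Which version and settings were used, and whether the arrays went through it together, is not given in the sources used here. Scan dates and scanner files were not used here. Between 29.0% and 31.5% of the probe sets of an array are at the floor. Of the probe sets, 34945 had a single gene symbol. Those with a log2 value above 4 on at least 3 of the 12 arrays were kept, and the brightest by mean stood for its gene.

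Group differences were tested on the log2 values with limma 3.58.1 in R 4.3.3 (lmFit, eBayes) in 1 model of the 4 groups, with 8 residual and 2.68 prior degrees of freedom. P-values are two-sided, adjusted by Benjamini-Hochberg over 10435 genes, with a threshold of 0.05. The code was tested on simulated data. With 3 arrays per group, which limits the precision, the smallest p of an exact permutation test is 0.1. Replicate numbers follow accession order. The members, gene lists and tests were chosen with earlier results of these data known. In each comparison the members named were the 5 with the largest rise and the 5 with the largest fall that passed, with the stalk proteins Mrpl10, Mrpl11 and Mrpl12 and with Mrps12 throughout. The 3 brightest and the 3 dimmest, the 3 with the widest gap per group, any with probe sets passing in opposite directions and up to 4 genes of each related list were named as well. Members named after their values were seen are the other members that passed in AB against sAB, Mrpl13 in the difference of effects and Mrpl12, Mrpl27 and Mrpl45 as promoters shown. Promoters and gene symbols came from RefSeq tables.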

Additional observations from a re-analysis of the deposited data

How the results depend on the processing

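No paired analysis was possible because the labels give no number, animal or batch that links arrays of different groups. Counts of members follow as deposited and then under settings that moved them. Some smaller moves are left out in AB against sDB3, DB3 against AB and sDB3 against sAB. The share of all genes or probe sets tested that passed under the same setting is in brackets. The cause was not tested unless fewer arrays or other probe sets were used by construction. AB against sAB (13 lower, 0 higher): 25 lower (10.3%) centred on the genes tested, 9 lower (5.8%) centred on all probe sets and 12 lower (3.5%) with no filter. With every probe set tested 20 were lower (6.8%) and 2 higher (12.2%), and with averaged probe sets 19 lower (7.41%) and 1 higher (13.2%). Quantile normalization gave 19 lower (10.1%), and a filter at 6 gave 17 lower (9.43%). Trend and robust moderation gave 18 lower (8.68%), and no moderation 17 lower (7.31%). Of the 13 calls, those of Mrpl39 and Mrpl55 were lost with no filter and that of Mrps7 with only the groups compared. DB3 against sDB3 (1 lower): 20 lower (3.33%) centred on the genes tested, 2 lower (0.882%) by quantile normalization, 3 lower (1.33%) with a filter at 6, 4 lower (1.53%) with trend and robust moderation, 2 lower (0.661%) without moderation, 0 lower (0.757%) centred on all probe sets, 0 lower (0%) with only the groups compared and 0 lower (0.567%) with every probe set. AB against sDB3 (5 lower, 1 higher): 25 lower (12.6%) and 0 higher (7.07%) centred on the genes tested, 2 lower (3.36%) and 4 higher (23.2%) centred on all probe sets, 8 lower (6.96%) by quantile normalization, 2 lower (3.31%) with only the groups compared, 2 higher (20.1%) with a filter at 6, 2 higher (18.3%) with trend and robust moderation, 2 higher (14.3%) without moderation, and 3 higher (14.5%) with every probe set. DB3 against AB (3 lower, 0 higher): 2 lower (4.46%) and 1 higher (4.75%) centred on the genes tested, 2 lower (4.87%) centred on all probe sets, 2 lower (1.98%) with no filter, 1 higher (4.49%) with averaged probe sets, 5 lower (6.28%) and 1 higher (5.17%) with trend and robust moderation, 5 lower (4.15%) and 1 higher (3.33%) without moderation, and 1 lower (3.61%) with only the groups compared. sDB3 against sAB (10 lower, 1 higher): 3 lower (4.61%) and 6 higher (10.1%) centred on the genes tested, 0 higher (4.56%) centred on all probe sets, 6 lower (7.04%) and 0 higher (6.82%) by quantile normalization, 6 lower (4.51%) with no filter, 2 lower (3.17%) and 0 higher (2.3%) with only the groups compared, and 2 higher (6.29%) with every probe set. Difference of effects (0 and 0): 1 lower (4.12%) centred on the genes tested, and 1 lower (2.83%) and 1 higher (2.65%) with every probe set. Banded against sham hearts (18 lower, 0 higher): 47 lower (14%) centred on the genes tested, 28 lower (9.36%) by quantile normalization and 10 lower (3.79%) centred on all probe sets. With every probe set 25 were lower (5.09%) and 2 higher (15.5%). Trend and robust moderation gave 26 lower (6.93%), a filter at 6 gave 21 (7.02%) and no filter 17 (2.7%). Averaged probe sets gave 20 lower (5.54%), and no moderation 20 (5.49%).

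Leaving out single arrays gave 8 to 14 lower and 0 to 1 higher in AB against sAB, 0 to 1 lower in DB3 against sDB3, 0 to 5 lower and 0 to 2 higher in AB against sDB3, 0 to 3 lower and 0 to 1 higher in DB3 against AB, 6 to 12 lower and 0 to 1 higher in sDB3 against sAB, and 11 to 22 lower in banded against sham hearts. Among single named members, 995 values stayed on the same side of the threshold over all settings, 116 lost a call and 10 gained a call. The 995 include values that passed neither as deposited nor under the other setting. Of these 1121 values 22 had the opposite sign to the difference as deposited, none of them past the threshold on either side. Medians over the members turned sign in AB against sDB3 (0.043 centred on all probe sets, 0.00037 without AB replicate 2 and 0.021 without sDB3 replicate 1, against -0.0080 as deposited) and in the difference of effects (-0.054 centred on the genes tested, against 0.035 as deposited).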

Other observations

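Every mitochondrial ribosomal protein has to be imported, and the genes of import and of the regulation of mitochondria are not covered above. Of 17 genes of mitochondrial protein import, 2 were higher (11.8%) and 0 lower in AB against sAB, a share of higher genes near the 12% of all genes tested. Tomm40, the channel of the outer membrane, averaged 9.63 ± 0.05 in AB and 9.09 ± 0.14 in sAB (SD, n = 3 each; log2 difference 0.53, limma adjusted p = 0.00511), and Tomm7, a small subunit of the same complex, was higher by 0.20 (adjusted p = 0.0426). Both were also higher in sDB3 against sAB, by 0.56 (adjusted p = 0.0067) and 0.23 (adjusted p = 0.0289), in a comparison that shares the sAB arrays. Of 10 regulators of mitochondrial biogenesis, 1 was higher and 0 lower in AB against sAB, and 2 were higher and 0 lower in DB3 against sDB3, where 5.37% of all genes tested were higher. Myc, a transcription factor of growth, averaged 6.01 ± 0.35 in AB and 4.80 ± 0.13 in sAB (log2 difference 1.21, adjusted p = 0.00054), and was higher in DB3 against sDB3 by 0.66 (adjusted p = 0.0334). The gene of nuclear respiratory factor 1, Nrf1, averaged 5.91 ± 0.15 in DB3 and 5.49 ± 0.09 in sDB3 (log2 difference 0.42, adjusted p = 0.0334), and 5.71 ± 0.13 in AB and 5.59 ± 0.07 in sAB (adjusted p = 0.413).

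A further 4 probe sets are annotated to a mitochondrial ribosomal protein and another gene together (Mrpl30, Mrpl53 and Mrps34) and so are not members. They did not pass in AB against sAB (adjusted p from 0.477 to 0.804) or in DB3 against sDB3 (adjusted p from 0.335 to 0.972).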
